A study of Mus musculus with 556 samples.

Results

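Of 24022 autosomal windows (bins) of 100 kb with values, 731 (3.04%, or 73.1 Mb) form the set described here. These windows had a high mean signal of nuclear lamina contact at the 2-cell stage, and a low one in zygotes and 8-cell embryos. They were chosen by the mean ratio of observed to expected DamID reads (OE) over single cells with Dam-lamin B1. A window, called a member below, had a mean OE of at most 0.85 over 19 zygotes, at least 1.15 over 47 cells of 2-cell embryos and at most 0.85 over 42 cells of 8-cell embryos. These 3 means are what selected the members, so they are given as a description only. The same thresholds put 1515 windows (6.31%) in a set gained at the 2-cell stage and kept at the 8-cell stage, and 552 windows (2.30%) in a set lost at the 2-cell stage only.

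The nuclear lamina is a meshwork of lamins beneath the inner nuclear membrane, and the long chromatin stretches that touch it, the lamina-associated domains (LADs), are mostly gene-poor and weakly transcribed. After fertilisation the maternal and the paternal genome lie in separate pronuclei, and in the mouse the main wave of embryonic transcription starts at the 2-cell stage. In DamID, the bacterial adenine methyltransferase Dam is tethered to lamin B1 and marks GATC sites near the lamina. Dam on its own marks accessible chromatin and is the control for it.

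Per the labels, all embryos and oocytes received Dam or Dam-lamin B1 as mRNA with an auxin-inducible degron, together with 250 ng/µl TIR1 mRNA and 50 ng/µl mRNA for a membrane EGFP. The labels' growth protocol gives F1 (CBAxC57BL/6J) females aged 5 to 8 weeks as egg donors, whereas the strain label reads C57BL/6. Whole zygotes, 2-cell and 8-cell embryos came from CAST/EiJ fathers, oocytes and separated pronuclei carry the label C57BL/6, and ES cells 129/Sv female x CAST/EiJ male. Dam-lamin B1 mRNA was given at 5 ng/µl to those oocytes and zygotes whose labels list it. For the 2-cell stage it was given at 10 ng/µl and for the 8-cell stage at 20 ng/µl. Dam alone was given at 20 ng/µl to oocytes and zygotes and at 40 ng/µl for the other 2 stages. Auxin was withheld for 6 to 8 h, which ran from 42 h after hCG at the 2-cell stage and from 66 h at the 8-cell stage. Dose and stage therefore cannot be told apart. Further zygotes carried wild-type or mutant mRNA of Kdm5b (2 µg/µl), a demethylase of histone H3 lysine 4, or of Kdm4d, a demethylase of histone H3 lysine 9. Others were kept in the DNA polymerase inhibitor aphidicolin or its solvent DMSO, and pronuclei were separated mechanically from zygotes with or without Kdm5b. For the zygotes with Kdm4d, in aphidicolin or in DMSO, and for pronuclei without Kdm5b, the labels list neither dose nor auxin-free time. The sources used here do not say what the mutations change.

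Which cells came from the same embryo or litter is not given in the labels, and the cells of 2-cell and 8-cell embryos can be sisters, so stages are described without a test. One 8-cell column names both constructs in its labels. It took part in the choice of the members, as the rule names its column, but not in the 8-cell values below, which cover 41 cells. Depth, estimated from the smallest steps between values, had a median of 41810 reads per zygote (28430 to 223124), 43248 per 2-cell cell (28377 to 116884) and 36305 per 8-cell cell (28745 to 197882). At least 100000 reads were reached by 2 zygotes, 1 2-cell column and 7 8-cell columns. An OE of 1 in a mean window of the median 2-cell cell thus rests on 1.80 reads. Single values in single cells are coarse, and the means over cells carry the description.

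The sequences upstream of 5 genes that start inside members are printed as examples. They are the 250 bases before the start in RefSeq (build GRCm38.p6, the same chromosome sequences as mm10), printed 5′ to 3′ on the strand of the gene with each GATC in capitals. Rsad2, which encodes the antiviral enzyme viperin, lies in the longest row of members, and these bases are chr12:26456453-26456702 on the minus strand. Sox11 encodes a transcription factor of neural progenitors (chr12:27342719-27342968, minus strand). H4c1 is a histone H4 gene (chr13:23761250-23761499, minus strand), Thbs2 encodes the matrix protein thrombospondin-2 (chr17:14694263-14694512, minus strand), and Slc26a5 encodes prestin, the motor protein of outer hair cells (chr5:21865605-21865854, minus strand).
Rsad2: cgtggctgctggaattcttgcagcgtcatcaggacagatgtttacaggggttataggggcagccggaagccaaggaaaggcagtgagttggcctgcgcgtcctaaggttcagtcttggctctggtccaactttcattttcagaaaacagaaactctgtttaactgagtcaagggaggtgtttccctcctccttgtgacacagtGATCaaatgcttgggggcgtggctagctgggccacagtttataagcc
Sox11: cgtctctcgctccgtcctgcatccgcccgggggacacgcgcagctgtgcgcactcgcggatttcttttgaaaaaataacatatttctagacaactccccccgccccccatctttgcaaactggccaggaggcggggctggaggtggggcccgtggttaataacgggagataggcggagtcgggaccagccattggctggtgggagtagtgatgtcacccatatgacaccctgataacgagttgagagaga
H4c1: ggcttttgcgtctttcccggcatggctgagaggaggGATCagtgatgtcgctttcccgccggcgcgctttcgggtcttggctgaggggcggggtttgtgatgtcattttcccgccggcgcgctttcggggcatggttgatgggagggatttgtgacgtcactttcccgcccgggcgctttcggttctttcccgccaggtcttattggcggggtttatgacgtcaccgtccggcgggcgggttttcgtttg
Thbs2: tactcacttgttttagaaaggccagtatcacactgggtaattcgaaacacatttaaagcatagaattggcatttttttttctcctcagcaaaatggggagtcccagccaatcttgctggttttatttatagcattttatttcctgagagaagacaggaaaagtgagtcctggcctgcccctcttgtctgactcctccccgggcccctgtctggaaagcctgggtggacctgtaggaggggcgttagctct
Slc26a5: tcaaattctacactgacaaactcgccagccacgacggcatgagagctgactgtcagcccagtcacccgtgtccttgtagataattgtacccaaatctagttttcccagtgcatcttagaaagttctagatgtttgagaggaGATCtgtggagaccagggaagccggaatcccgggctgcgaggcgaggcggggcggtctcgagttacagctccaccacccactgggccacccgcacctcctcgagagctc
The upstream bases of Rsad2, H4c1 and Slc26a5 hold 1 GATC each, and those of Sox11 and Thbs2 hold none. GATC reads the same on both strands. Of 743 promoters that start in a member, 37.6% held a GATC in these 250 bases, beside 41.6% of 31396 autosomal promoters. A match is a place Dam could mark and says nothing about whether it did.

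The members gathered at the centromeric end of the chromosomes. Mouse autosomes have their centromere at one end, which is where their coordinates begin. Each autosome was divided into 3 segments with equal numbers of windows. Of the 731 members, 576 (78.8%) lay in the proximal segment, next to the centromere, 120 (16.4%) in the middle and 35 (4.79%) in the distal segment. Members made up 7.19% of the windows of the proximal segment, 1.5% of the middle and 0.437% of the distal segment. With 10 slices per autosome, the share went from 9.42% of the windows in slice 1, next to the centromere, to 0.167% in slice 8 and 0.71% in slice 10. On all 19 autosomes the proximal segment held more than its even share of the members, from 45.5% on chromosome 7 and 46.4% on chromosome 19 to 96.0% on chromosomes 5 and 12. Chromosome 3 held the most members (55, or 3.50% of its windows) and chromosome 18 the fewest (17, or 1.94%). As a share of windows, chromosomes 15 (4.85%) and 19 (4.80%) were highest and chromosomes 5 (1.68%) and 7 (1.55%) lowest.

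The windows gained at the 2-cell stage and kept were distributed the other way round, with 23.4% of 1515 in the proximal and 45.8% in the distal segment. Of the 552 windows lost at the 2-cell stage only, 12.7% lay in the proximal segment. The sets share their zygote, 2-cell and 8-cell cells with the members, so they are given beside them as a description.

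**Figure D1:**
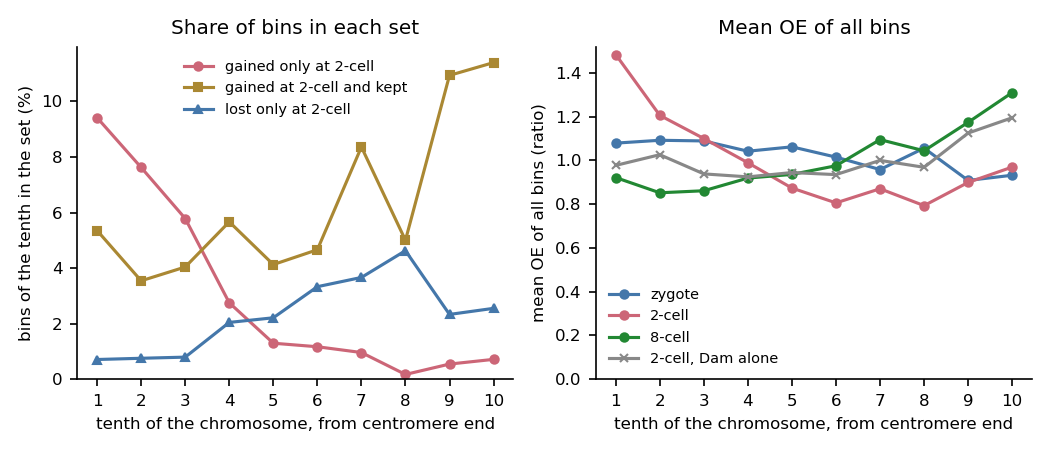
Left, percent of windows in each of 10 slices of the autosomes (1 is next to the centromere) that belong to the 3 sets; right, mean OE (ratio) of all windows in each slice for Dam-lamin B1 in 19 zygotes, 47 2-cell cells and 41 8-cell cells and for Dam alone in 45 2-cell cells. Members make up 9.42% of slice 1 and 0.957% or less of each of slices 7 to 10, and the mean 2-cell OE of all windows is 1.48 in slice 1 and 0.969 in slice 10.

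The proximal segment as a whole was also highest at the 2-cell stage. Over all windows, the mean 2-cell OE was 1.48 in slice 1 and 0.793 in slice 8, while the 8-cell mean was 0.922 in slice 1 and 1.31 in slice 10. In the zygote, slice 1 had 1.08 and slice 10 had 0.932. In each cell, the mean OE of the proximal segment was divided by that of the distal segment. The log2 of this ratio was 0.50 ± 0.19 (SD, n = 47) at the 2-cell stage, with a lowest cell at -0.01, a median of 0.54 and a highest cell at 0.92. It was above 0 in 46 of 47 cells. The 2-cell cells with replicate numbers 4 to 23 lay between 0.49 and 0.92, and those with 24 to 36 between 0.19 and 0.44. Those with 37 to 50 ran from -0.01 to 0.81. The 47 cells were thus not 1 even group. The labels do not say what the numbers mark, and the reason was not tested. At the 8-cell stage the log2 ratio was -0.40 ± 0.15 (SD, n = 41), from -0.86 to -0.14, so no 8-cell cell was above 0 and none reached the lowest 2-cell cell. The 19 zygotes had 0.16 ± 0.08 (SD) and were all above 0, with the highest at 0.32. With the members left out, the ratio was 0.46 ± 0.19 (SD, n = 47) at the 2-cell and -0.36 ± 0.15 (SD, n = 41) at the 8-cell stage, so the tilt was in the other windows as well.

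The slope was not the same in Dam alone. With Dam alone the log2 ratio was -0.16 ± 0.08 (SD, n = 46) in zygotes and -0.16 ± 0.23 (SD, n = 45) in 2-cell cells, of which 11 of 45 were above 0. Among these 2-cell cells, those with replicate numbers 4 to 22 were all below 0. Those with 41 to 48 were all above 0 (0.05 to 0.22), as were most cells with Dam-lamin B1. In the 4 8-cell cells with Dam alone the log2 ratio was -0.68 ± 0.28 (SD), from -1.07 to -0.44. At the 2-cell stage the sign of the mean thus differed from that of Dam-lamin B1, though not in every cell, and at the 8-cell stage it was the same. Zygote groups that the rule did not use had values of 0.21 ± 0.13 (SD, n = 11) in DMSO and 0.13 ± 0.06 (SD, n = 15) in paternal pronuclei. Maternal pronuclei had 0.39 ± 0.11 (SD, n = 10), and maternal pronuclei with mutant Kdm5b 0.43 ± 0.22 (SD, n = 13). The group mean was above 0 in 11 of these 12 groups, the exception being paternal pronuclei with wild-type Kdm5b at -0.03 ± 0.06 (SD, n = 19). Oocytes with 5 ng/µl had 0.05 ± 0.21 (SD, n = 56) and ES cells -0.05 ± 0.07 (SD, n = 10).

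**Figure D2:**
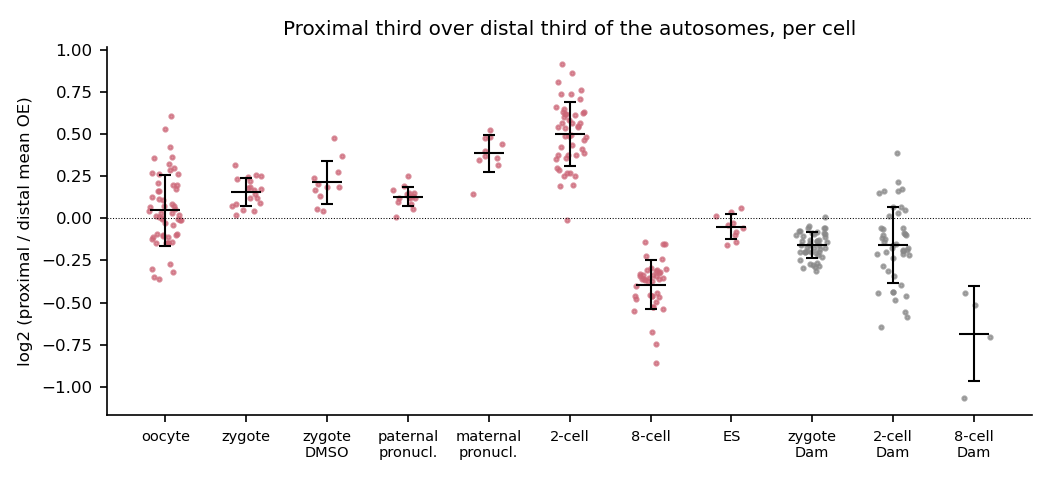
Log2 of the mean OE of the proximal over the distal segment of the autosomes, 1 point per cell, with the mean and SD of each group in black; red points are Dam-lamin B1 and grey points Dam alone. The 2-cell cells centre on 0.50, the 41 8-cell cells all lie below 0, and Dam alone at the 2-cell stage centres on -0.16.

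In the cells that defined them, the members had a median mean OE of 0.648 in zygotes, 1.53 at the 2-cell stage and 0.649 at the 8-cell stage, against 0.903, 0.862 and 0.896 over all windows. A member had an OE of at least 1 in a median of 26.3% of zygotes, 59.6% of 2-cell cells and 24.4% of 8-cell cells. The corresponding shares over all windows were 36.8%, 34% and 36.6%. Of the single values of members, 17.3% were 0 in 2-cell cells, 39.1% in zygotes and 44.4% in 8-cell cells. Averaged over the members, every 2-cell cell was above 1, with a lowest cell at 1.33, a median of 1.62 and a highest of 2.32. The zygotes ran from 0.484 to 0.786 with a median of 0.636, and the 8-cell cells from 0.459 to 0.984 with a median of 0.595. No zygote and no 8-cell cell reached the lowest 2-cell cell, as the choice of the members makes likely. The mean of a cell over the members went with the log of its reads at r = 0.75 over 19 zygotes, -0.35 over 47 2-cell cells and 0.64 over 41 8-cell cells. These cells share the depth in both measures, and the part of depth in the levels was not tested.

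Windows just inside and just outside the limits differed little. The member nearest to the 2-cell limit, chr3:39400001-39500000, had a mean of 1.1501, and the window just outside it, chr2:11100001-11200000, had 1.1498. For the zygote limit the nearest windows on either side were chr19:55400001-55500000 at 0.8498 and chr16:6900001-7000000 at 0.8500, which lies just above. For the 8-cell limit they were chr14:64300001-64400000 at 0.8488 and chr16:4500001-4600000 at 0.8503. Without the single highest 2-cell cell at each window, 611 of the 731 members kept a 2-cell mean of at least 1.15.

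Outside the cells that chose them, the members were near the level of all windows, and low in most zygote groups. In 12 groups with 147 further zygotes or pronuclei, the median of the members ranged from 0.719 with mutant Kdm5b to 1.04 in paternal pronuclei with wild-type Kdm5b. It lay below that of all windows in 10 of the 12 groups. In all 12 groups at once, 3 members (0.410%) had a mean of at most 0.85, where 1.16% of all windows did. In none of them did 18 members. In DMSO zygotes, 378 members (51.7%) had a mean of at most 0.85, where 39.9% of all windows did. In paternal pronuclei 488 members (66.8%) did, against 45.5% of windows, and in maternal pronuclei 417 (57%), against 49.1%. Oocytes with 5 ng/µl gave the members a median of 0.886 and all windows 0.872, and 328 members (44.9%) had at most 0.85 there, as had 47.7% of windows. In oocytes labelled 20 ng and 50 ng of Dam-lamin B1 the members had 1.07 and 1.07, beside 0.989 and 1.00 for all windows.

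Among 10 ES cells the members had a median of 0.837 and all windows 0.930. Of the members, 379 (51.8%) had a mean of at most 0.85 there, where 42.9% of all windows did. Another 133 (18.2%) had at least 1.15, where 32% of all windows did. The 1515 windows gained and kept had an ES median of 1.05.

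With Dam alone, the members had a median of 1.09 in oocytes, 1.05 in zygotes and 0.937 in 2-cell cells, against 0.995, 0.956 and 0.889 over all windows. In oocytes 274 members (37.5%) had a Dam-alone mean of at least 1.15, where 31.6% of all windows did. In zygotes 273 members (37.3%) had a Dam-alone mean of at least 1.15, where 34.6% of all windows did. At the 2-cell stage 191 members (26.1%) had a Dam-alone mean of at least 1.15, where 31.2% of all windows did. A Dam-alone mean of at most 0.85 was also less common among members at that stage (38.4%) than among all windows (46.7%). In the 4 8-cell cells with Dam alone the median was 0.534, beside 0.582 over all windows, and 71.0% of members were at or below 0.85, where 61.5% of windows were. Without replicate 5 of these 4 cells the median was 0.448. Averaged over the members, the 4 cells lay between 0.597 and 0.778.

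**Figure D3:**
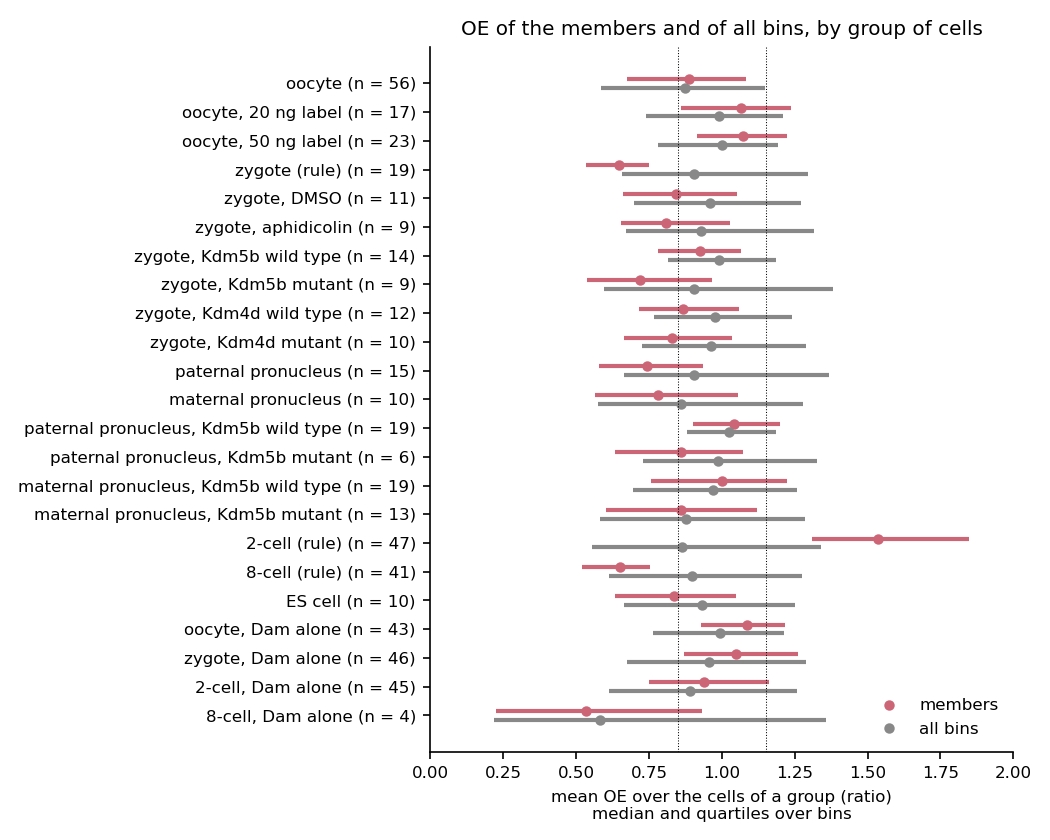
Median (point) and quartiles (bar) of the mean OE (ratio) of the 731 members in red and of all 24022 windows in grey, for each group of cells, with the number of cells in brackets; dotted lines are the limits 0.85 and 1.15. The members stand apart at the 2-cell stage, where they were chosen, and in ES cells their median of 0.837 lies below the 0.930 of all windows.

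Members tended to lie next to each other. Counting windows that are adjacent or have 1 window between them as a run, the 731 members made 468 runs, of which 327 were single windows and 60 held 3 or more members. Of the members, 285 (39%) had a member directly beside them. Windows that were adjacent to a member but no member themselves had a mean 2-cell OE of 1.48, which was 1.22 at 1 Mb and 1.17 at 3 Mb, where all windows had 0.999. The zygote mean was 0.825 in the adjacent windows, 0.929 at 1 Mb and 1.04 at 3 Mb, beside 1.02 over all windows. The 8-cell mean was 0.90 in the adjacent windows and 0.914 at 3 Mb, beside 1.01. Over all windows of the proximal segment, where most members lie, the means were 1.08 in zygotes, 1.24 at the 2-cell and 0.883 at the 8-cell stage. At 1 Mb and beyond, the 2-cell mean was thus not above that of the proximal segment. Of 1017 adjacent windows, 61.7% had a 2-cell mean of at least 1.15, as did 33.2% of all windows, and 77.8% were higher at the 2-cell stage than at both other stages, as were 29.2% of all windows. The same measure with Dam alone at the 2-cell stage was 1.03 in the adjacent windows and 1.00 over all windows.

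**Figure D4:**
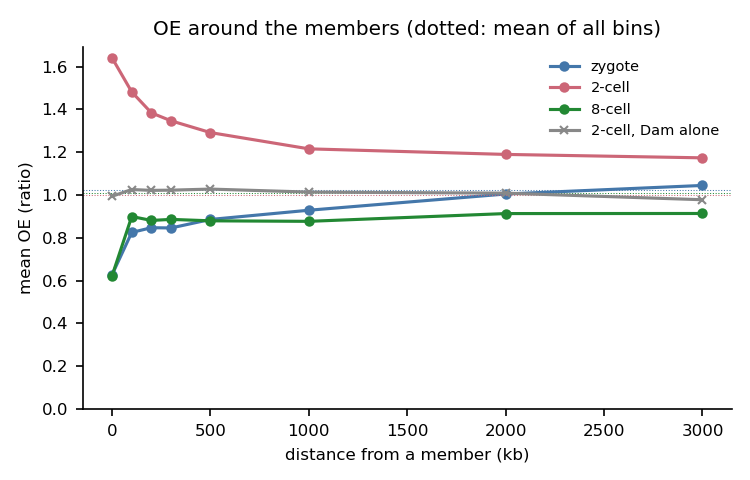
Mean OE (ratio) of the members (distance 0) and of windows that are not members at 100 to 3000 kb from one, for Dam-lamin B1 at 3 stages and Dam alone at the 2-cell stage; dotted lines are the means of all windows. The 2-cell line goes from 1.64 at the members to 1.17 at 3000 kb and stays above the mean of all windows. All windows of the proximal segment, where most members lie, had a 2-cell mean of 1.24. The Dam-alone line stays near 1.

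The longest run held 11 members in chr12:25200001-26700000 and covers Rsad2, its neighbour Cmpk2, which encodes a nucleotide kinase of mitochondria, and Rnf144a, which encodes a ubiquitin ligase. Averaged over its members, the OE of a cell had a lowest, median and highest value of 0.286, 0.555 and 0.995 in zygotes, 0, 1.61 and 3.23 in 2-cell cells, and 0, 0.49 and 2.04 in 8-cell cells. Above 1 were 0 of 19 zygotes, 41 of 47 2-cell cells and 5 of 41 8-cell cells. The ranges overlapped: most 2-cell cells stood above every zygote, while the highest 8-cell cell exceeded the 2-cell median. The window that overlaps all 3 genes, chr12:26400001-26500000, had means of 0.502, 1.93 and 0.634 in zygotes, 2-cell and 8-cell cells. The next run on that chromosome, chr12:27000001-27700000 with 6 members, holds Sox11, whose window had 0.590, 1.85 and 0.556.

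On chromosome 17, 9 members in chr17:4900001-6000000 cover Arid1b, a subunit gene of the BAF chromatin remodelling complex, and reach through Tmem242, Zdhhc14 (a palmitoyltransferase) and Snx9 (a sorting nexin of endocytosis) to Synj2, a lipid phosphatase gene. This run had the highest 2-cell value of the 5 longest, with cells from 0.215 to 5.79 and a median of 2.05. Zygotes ran from 0.257 to 1.01 with a median of 0.658, and 8-cell cells from 0 to 1.56 with a median of 0.366. Above 1 were 2 of 19 zygotes, 44 of 47 2-cell cells and 3 of 41 8-cell cells. The deposited LAD lists of the inner cell mass and of the trophectoderm of the blastocyst held none of the 9 windows, and the run had a mean of 0.471 in ES cells and, with Dam alone, of 1.31 in zygotes and 1.14 at the 2-cell stage.

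The other 3 of the 5 longest runs had most 2-cell cells above 1 as well. Clvs1 and Asph, which encodes an aspartate hydroxylase, lie in 8 members in chr4:8900001-9800000, with medians over cells of 0.552, 1.67 and 0.369 in zygotes, 2-cell and 8-cell cells. In that run 40 of 47 2-cell cells were above 1, beside 1 of 19 zygotes and 5 of 41 8-cell cells. In chr17:13900001-14900000, 7 members reach from Afdn, which encodes the junction protein afadin, over the matrix protein genes Smoc2 and Thbs2 to Wdr27. Their medians were 0.651, 1.61 and 0.482, the lowest 2-cell cell had 0.731 and the highest zygote 1.73. The run in chr8:15500001-16300000, also of 7 members, lies in Csmd1, a very long gene for a membrane protein of the complement system, with medians of 0.612, 1.64 and 0.530. In ES cells it had 1.06, and all 7 windows were in the LAD list of the trophectoderm but not in that of the inner cell mass.

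**Figure D5:**
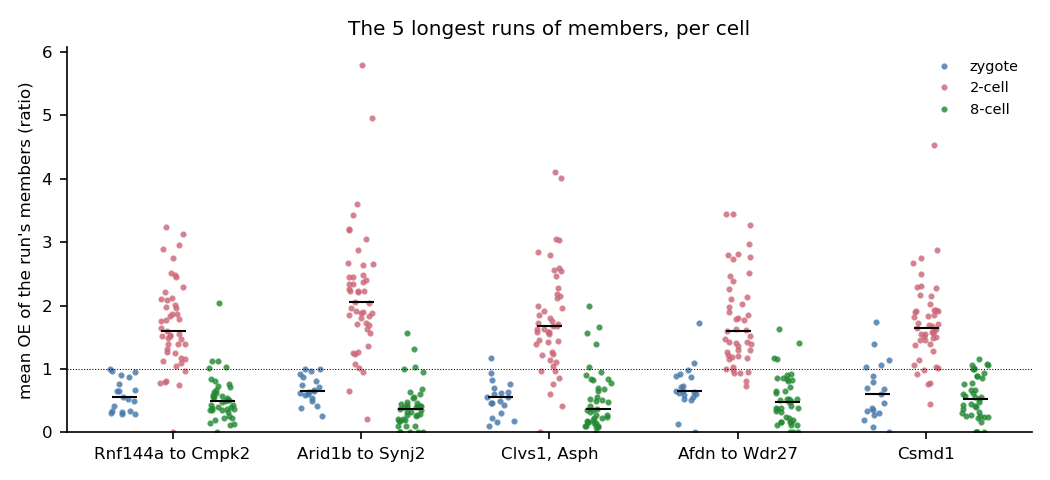
Mean OE (ratio) over the members of each of the 5 longest runs, 1 point per cell for 19 zygotes, 47 2-cell and 41 8-cell cells, with the median as a black bar and the dotted line at 1. In every run the 2-cell median (1.61 to 2.05) lies above the medians of both other stages (0.366 to 0.658), and single cells of the stages overlap.

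Ranked by how far the 2-cell mean exceeded the higher of the other 2 means, 6 of the first 10 members could not be read safely. These 6 windows had no read step that could be recovered, which marks windows with very few expected reads. The first, chr10:1500001-1600000, owed its 2-cell mean of 7.55 to 1 of 47 cells with an OE of 354.8, and the second, chr2:175800001-175900000 with Gm14288 and Gm6710, its 5.99 to 1 cell as well. The others were chr2:100500001-100600000 (7 of 47 cells), chr14:3400001-3500000, chr4:42100001-42200000 with Ccl21b, and chr8:20700001-20800000 (2 of 47 cells each). In all, 13 members (1.78%) had no step or under 0.25 of the expected reads of a mean window, as had 1.23% of all windows. Without these 13, 79% of the remaining 718 members lay in the proximal segment.

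The other 4 of the first 10 rested on many cells, with a caution for the last. The window chr2:19700001-19800000, which overlaps no protein-coding gene, had a lowest, median and highest OE of 0, 0.371 and 2.54 in zygotes, 0.689, 3.44 and 9.64 in 2-cell cells, and 0, 0.117 and 3.18 in 8-cell cells. An OE of at least 1 was seen in 6 of 19 zygotes, 43 of 47 2-cell cells and 10 of 41 8-cell cells. With Dam alone its mean was 1.46 at the 2-cell stage. In Arid1b, chr17:5200001-5300000 had medians of 0.614 in zygotes, 3.52 at the 2-cell stage and 0 at the 8-cell stage, with at least 1 in 6 of 19, 41 of 47 and 5 of 41 cells. Its 2-cell mean was 3.39 ± 1.78 (SD, n = 47), and with Dam alone the 2-cell mean was 1.62. A window in Frmd4a, a gene of cell polarity, chr2:4300001-4400000, had medians of 0.617, 3.31 and 0.664, with at least 1 in 5 of 19, 41 of 47 and 10 of 41 cells. The tenth, chr9:13300001-13400000 in Maml2, a coactivator gene of the Notch pathway, had 0.230 of the expected reads of a mean window. Its 2-cell mean was 3.18 ± 3.88 (SD, n = 47), and 17 of the 47 cells had no read there.

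Within a stage, neighbouring members varied together more than distant ones. Over cells, the log2(OE + 0.5) of adjacent members correlated at a mean r of 0.08 in 19 zygotes, 0.31 in 47 2-cell cells and 0.22 in 41 8-cell cells. Members on different chromosomes had a mean r of 0.04, 0.01 and 0.05. Such correlations come from the same cells and share their depth, and they are weak in counts this sparse.

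By the LAD lists of the blastocyst, a larger share of the members than of all windows lay where the 2 lists differ. A window was put in a list when at least 50% of it was covered. Both lists held 258 members (35.3%), the list of the inner cell mass alone 115 (15.7%), that of the trophectoderm alone 109 (14.9%), and neither list 249 (34.1%). Over all windows these shares were 50.3%, 8.23%, 9.48% and 32%. Of the windows gained and kept, 74.3% were in both lists and 8.12% in neither. Within the proximal segment the picture was similar, with 34.5% of the members there and 50.6% of all windows there in both lists. The split depends on how cells are averaged: with the median over cells in place of the mean, 52.3% of the windows chosen were in both lists and 19.6% in neither, and with the highest and lowest 10% of cells left out 44.7% and 25.0%. Members also lay nearer to the edges of LADs. The edge of a trophectoderm LAD was within 2 windows of 24.9% of the members and 15.7% of all windows, and that of an inner cell mass LAD of 20.1% and 14.4%.

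Members in different LAD classes differed in the groups that did not choose them. In ES cells the median was 0.983 for members in both lists and 0.694 for members in neither, beside 1.16 and 0.635 for all windows of those classes. With Dam alone at the 2-cell stage these medians were 0.827 and 1.12, beside 0.718 and 1.38. Members outside both lists were thus lower with Dam alone than other windows outside both lists, and members inside both were higher than other windows inside both.

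Members held few genes, and some of those were long. On average 0.570 midpoints of protein-coding genes of the RefSeq annotation fell in a member and 0.855 in any window, and 32.3% of members held no part of a gene, as did 35.1% of all windows. A gene of at least 500 kb was overlapped by 12.9% of members and 8.45% of all windows, among them Csmd1, Kcnma1 (the BK potassium channel) and Opcml (a cell adhesion molecule of neurons). The windows gained and kept held 0.472 midpoints on average, and 11.0% of them overlapped a gene of that length. Neither trait was thus particular to the members. Of 28 gene lists, read as the windows that hold a midpoint of their genes, members were 2 of the 12 windows of histone genes and 1 of the 7 windows of type I interferon genes, beside 3.04% of all windows. For olfactory receptors they were 1 of 338 windows, for cytochrome P450 genes 0 of 76 and for ribosomal protein genes 0 of 71. The lists of pluripotency genes (14 windows), trophectoderm genes (8), primitive endoderm genes (6), genes activated at the 2-cell stage (20) and Hox genes (9) had no member.

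The histone windows belong to the cluster on chromosome 13. The window chr13:23700001-23800000 holds H1f1, H1f2, H2ac4, H2bc3, H3c1, H3c2, H3c3, H4c1 and H4c2, had a 2-cell median over cells of 1.40 (0 to 2.53) and had at least 1 in 33 of 47 2-cell cells, 5 of 19 zygotes and 3 of 41 8-cell cells. Its means were 0.744, 1.32 and 0.381. Close by, chr13:23900001-24000000 with H2ac1 and H2bc1 had 0.639, 1.72 and 0.731. Both were in neither LAD list. The interferon window chr4:88800001-88900000, with Ifna1, Ifna4, Ifna5, Ifna6, Ifna7, Ifna11 and Ifne, had means of 0.594, 1.29 and 0.753 and was in both lists. Further members held Opcml (0.431, 1.65 and 0.821 in its midpoint window), the potassium channel genes Kcns3 and Kcnq3 (2-cell means 1.44 and 1.33), Serpinb1a (1.24), the beta-defensin genes Defb12, Defb14 and Defb34 (1.23), the vomeronasal genes Vmn1r155 and Vmn1r257 (1.51, in a window with no recovered read step), and the zinc finger genes Zfp385b, Zfp704 and Zkscan8 (1.38, 1.21 and 1.32). The 3 olfactory receptor genes Olfr1364, Olfr1366 and Olfr1535 share the window of Zkscan8. The solute carriers were Slc26a5 (2.28), Slc36a4 (1.99), Slc10a5 (1.81), Slc17a4 (1.72), Slc35b3 (1.60), Slc3a2 (1.43), Slc15a3 (1.40), Slc2a2 (1.40), Slc9a4 (1.34) and Slc30a5 (1.34). Members were 10 of the 343 windows of solute carriers (2.92%), near the 3.04% of all windows. For potassium channels they were 2 of 76 windows, for zinc finger genes 3 of 300 and for long neuronal genes 1 of 30. For defensins they were 1 of 22, for serine protease inhibitors 1 of 37 and for type 1 vomeronasal receptors 1 of 102.

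Whether the members respond to Kdm5b, Kdm4d, aphidicolin or parental origin in zygotes was tested with limma on log2(OE + 0.5) over all windows, with Benjamini-Hochberg adjustment, in cells the rule did not use. The replicates are separate zygotes or pronuclei, and since their mothers are not named, p-values measure only the spread between these samples. For wild-type against mutant Kdm5b no window passed an adjusted p of 0.05 by limma in whole zygotes (14 against 9, 0 of 23939, 0%), paternal pronuclei (19 against 6, 0 of 23967, 0%) or maternal pronuclei (19 against 13, 0 of 23942, 0%), and so no member did. At an unadjusted p under 0.05 there were 3985, 3475 and 2208 windows by limma, and 1287, 1033 and 1140 by Fisher's exact test of cells with an OE of at least 1, which passed none after adjustment either. Of 729 members tested in whole zygotes, 128 had higher OE with wild-type Kdm5b at that unadjusted level and 8 had lower OE, where 13.0% of all windows were higher and 3.62% lower. In paternal pronuclei it was 86 higher and 10 lower of 726 members, where 7.24% and 7.26% of windows were. In maternal pronuclei it was 72 and 5 of 727, where 6.80% and 2.43% were. The median log2 difference was 0.29 for the members and 0.15 for all windows in whole zygotes, 0.22 and 0.06 in paternal pronuclei, and 0.17 and 0.12 in maternal pronuclei. The windows gained and kept, also chosen as low in zygotes, were higher with wild-type Kdm5b as well. Their median was 0.833 with the mutant and 0.966 with wild type in whole zygotes. It was 0.905 and 1.07 in paternal pronuclei, and 0.864 and 1.04 in maternal pronuclei. The windows lost at the 2-cell stage only were lower with wild type, at 1.14 against 1.47 in whole zygotes. A rise was thus not particular to the members. Whole zygotes with wild-type Kdm5b were deeper, with a median of 216228 reads against 85761 with the mutant. With cells of at least 100000 reads only (11 against 4), the median log2 difference there was 0.13 for the members and 0.07 for all windows. Of the members, 56 were higher and 12 lower at an unadjusted p under 0.05 by limma, where 5.24% and 3.24% of windows were. In maternal pronuclei (6 against 2) that read minimum gave 27 members higher and 20 lower, where 3.09% and 4.00% of windows were. In paternal pronuclei (10 against 3) it gave 74 and 13, where 6.29% and 6.68% of windows were.

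Wild-type against mutant Kdm4d (12 against 10 zygotes) gave 1 of 23930 windows by limma (0.00418%), which was no member, with 953 at an unadjusted p under 0.05, and 587 by Fisher's exact test. Aphidicolin against DMSO (9 against 11 zygotes) gave 3 of 23929 windows (0.0125%) and no member, with 1365 and 596 at the unadjusted level. The median log2 difference of the members was 0.03 and -0.03 in these 2 comparisons, beside -0.01 and -0.00 for all windows. With Kdm4d, 16 of 725 members were higher and 13 lower at an unadjusted p under 0.05, where 1.72% and 2.26% of windows were. With aphidicolin it was 12 and 13 of 727, where 2.91% and 2.79% were.

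Paternal and maternal pronuclei without Kdm5b (15 against 10) differed in 428 of 23964 windows by limma (1.79%), of which 356 were higher in paternal (1.49%) and 72 in maternal pronuclei (0.300%). Of 729 members tested, 3 were among them, 2 higher in paternal and 1 in maternal pronuclei. At an unadjusted p under 0.05, 38 members were higher and 33 lower in paternal pronuclei, where 12.4% and 4.00% of windows were. The window chr4:20000001-20100000 with Ttpa (the transfer protein of vitamin E) and Ggh (gamma-glutamyl hydrolase) had a mean OE of 1.49 ± 1.21 (SD, n = 15) in paternal and 0.238 ± 0.401 (SD, n = 10) in maternal pronuclei. Its log2 difference was 1.29 ± 0.34 (SE), with a limma adjusted p of 0.0281. The window chr3:50500001-50600000, which overlaps no protein-coding gene, had 1.81 ± 1.07 and 0.550 ± 1.09 (SD), a log2 difference of 1.38 ± 0.37 (SE) and a limma adjusted p of 0.0326. In the other direction, chr15:3600001-3700000 had 0.149 ± 0.179 in paternal and 1.19 ± 1.51 (SD) in maternal pronuclei, with a log2 difference of -1.07 ± 0.30 (SE) and a limma adjusted p of 0.0372. Over the members the median log2 difference was 0.02 and over all windows 0.13. Fisher's exact test passed no window, and with cells of at least 100000 reads (9 against 3) limma passed 6 windows and no member. Over all alternatives the adjusted p ran from 0.0264 to 0.692 for the Ttpa window, from 0.0207 to 0.658 for the chromosome 3 window and from 0.037 to 0.417 for the chromosome 15 window.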

How the data were processed

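DamID of single oocytes, zygotes, pronuclei, embryo cells and ES cells was deposited as 1 table of OE, the ratio of observed to expected reads that the authors computed per 100 kb window; 24022 of 24639 windows had values. Per the submitters' processing notes reads were trimmed with cutadapt and aligned with BWA 0.7.12 to mm10. How the expected number was made, and how LADs were called in the 2 interval lists the authors deposited (inner cell mass and trophectoderm), the sources used here do not say. A window counted as in a list at a cover of 50% or more. The table has 512 columns, of which 498 could be placed in a group by their labels and 14 could not. Samples pooled from several embryos were not used here.

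Because OE divides small read counts, the values of a window are multiples of a step. A step was found for 23898 windows, and with it 100% of the non-zero values in every cell came out whole within 0.02 reads. This gave an estimated depth of 71769 reads in the median cell, which would be a multiple of that if the smallest step were worth several reads. The steps scale with an expected number whose origin is unknown, so no count model was fitted.

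Member windows came from the thresholds 0.85 and 1.15 on the mean OE. The members and lists were chosen with earlier results of these data known. Comparisons not used in choosing them were fitted with limma 3.58.1 (R 4.3.3) on log2(OE + 0.5) over all windows with a mean OE of at least 0.1, with a Benjamini-Hochberg threshold of 0.05. The fit was also run on simulated reads, drawn independently for each cell and only for windows with a mean OE of at least 0.5. That setting differs from the data, so it does not vouch for the calls. Cells of 1 stage may share embryos, so stages were not tested against each other. Alternatives were other thresholds, the median or a trimmed mean over cells, minimum reads, pseudocounts of 0.1 and 1, no filter, Fisher's exact test and the replicate number as a block.

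The text names the 10 members with the largest gap of the 2-cell mean over both other means, the 5 longest runs, members with the midpoint of a listed gene, members that passed limma, and the windows nearest to each threshold. The promoters printed, the Sox11 run, the genes named as long and the miRNAs were chosen after their values were seen. Gene positions and promoters are from RefSeq (GRCm38.p6).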

Additional observations from a re-analysis of the deposited data

Results flagged for a closer look

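In 7 groups of 4 to 10 cells, the mean OE over the members and the log2 ratio of proximal to distal OE were searched for a single cell far from the others. This gave 14 searches, of which 2 found one, where chance gives about 1 in 20. Among the 9 zygotes kept in aphidicolin, replicate 6 had a mean over the members of 0.674, while the next lowest had 0.854 and the group median was 0.863. Among the 6 paternal pronuclei with mutant Kdm5b, replicate 6 had a log2 ratio of proximal to distal OE of -0.025, while the next lowest had 0.06 and the median was 0.08. The gap of the cell was 0.667 and 0.654 of the range of its group.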

How the results depend on the processing

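The gathering of members near the centromere kept its direction under every alternative, but its size and the list itself did not. The proximal share was 73.5% with both thresholds 0.05 nearer to 1, 75.3% with cells of at least 40000 reads (added after seeing the data) and 48.0% with cells of at least 100000 reads, which leaves 2 zygotes, 1 2-cell and 7 8-cell columns. The number of members was 1314 with the median over cells, of which 463 were among the 731, and 1250 with at least 100000 reads, of which 153 were. With at least 40000 reads, 401 of 681 were shared. At 4 cells, Dam alone at the 8-cell stage had a member median of 0.448 to 0.550 when 1 cell was left out. Windows called by limma in paternal pronuclei for Kdm5b numbered 12 with a pseudocount of 0.1 (1 of them a member), 6 with 1, and 1 with at least 100000 reads. That read minimum gave 1 window for Kdm5b in maternal pronuclei (the member chr10:1500001-1600000, which has no recovered read step), 0 for Kdm4d, 1 for aphidicolin and 6 for paternal against maternal pronuclei. Fisher's exact test gave 0 for each of the last 3 comparisons. The cause was not tested. The labels do not say that replicate numbers mark shared embryos, and in no comparison did every same-numbered pair correlate over 0.1: 2 of 9 pairs did for Kdm5b in whole zygotes (the highest at 0.13, with 4 of 9 cells correlating best with their own number), 1 of 10 for Kdm4d and 0 in the other 4 comparisons. With the replicate block 163 windows were called between paternal and maternal pronuclei, from 10 cells of each. None of the 3 members named was among them (adjusted p by limma 0.166, 0.0779 and 0.131 for the Ttpa, chromosome 3 and chromosome 15 windows), and a different member, chr13:63800001-63900000, was. The block left the calls of the other comparisons at the same number. At an unadjusted p under 0.05 by limma it gave 11 of 724 members higher and 24 lower for Kdm4d, where 1.60% and 2.73% of windows were. The median log2 difference of the members there turned to -0.03, beside -0.04 over all windows. For Kdm5b in paternal pronuclei the block gave 32 and 9 of 724 members, where 3.46% and 4.53% of windows were. The small median of the members for aphidicolin turned to 0.02 with at least 100000 reads, beside 0.03 over all windows. Depth limits single values: an OE of 1 rests on 1.51 to 1.80 reads in the median cell of the 3 stages.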

Other observations

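Of the cells that could not be placed in a group, 13 are oocytes whose labels give both 20 ng and 50 ng of Dam-lamin B1. Their mean OE over the members ran from 0.997 to 1.21 with a median of 1.08. The 8-cell cell whose labels name both constructs had 0.776.

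Members held 15 miRNA genes in 12 windows. No share over all windows is given for miRNA genes, so the count shows neither an excess nor a lack among the members. Mir206 and Mir133b, which are expressed in muscle, share the window chr1:20600001-20700000 with mean OE of 0.530 in zygotes, 1.38 in 2-cell cells and 0.429 in 8-cell cells. Mir30a and Mir30c-2 lie in chr1:23200001-23300000 with 0.628, 1.18 and 0.624, and Mir193b and Mir365-1 in chr16:13400001-13500000 with 0.816, 1.21 and 0.747.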
